A study of Mus musculus with 10 samples.

Results

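The cytosolic ribosomal protein genes were taken as the row names of the deposited rate table that follow the Rpl and Rps naming pattern, with Rplp0, Rplp1, Rplp2 and Rpsa added where listed. This gave 58 of the 8590 genes in the table, 37 of the large and 21 of the small ribosomal subunit, and none of the 4 added names was among them. Cortical neurons from embryonic day 18 mice of the strain labelled FVB.129P2-Pde6b+ Tyrc-ch/AntJ were cultured for 14 days, either wild type or Fmr1-KO, a knockout of the gene for the RNA-binding protein FMRP. The cultures took up 5-ethynyluridine (5-EU), which marks newly made RNA, at 200 µM for 20 or 60 min, and the marked RNA was pulled down. Each genotype had 1 labelled library per time, so its 2 labelling times stood as its 2 replicates. Both genotypes carry the same strain label. The labels do not say whether samples came from separate cultures or animals, so the p-values below measure only the spread between these samples.

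Ribosomal proteins and ribosomal RNA form the large and small subunits that make every protein of the cell. Their messenger RNAs are short, abundant and generally stable, and begin with a tract of C and T (U in RNA) called a terminal oligopyrimidine or TOP tract, through which mTOR and the protein LARP1 control their translation. In neurons, messenger RNAs for translation machinery are also found in dendrites and axons, and FMRP is known to bind ribosomes and many messenger RNAs. A synthesis rate says how fast a transcript is made, a processing rate how fast its unspliced form is converted, and a degradation rate how fast the mature form is lost. The comparison of genotypes asks whether these rates differ without Fmr1.

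Start sites of a few genes are shown first, because the TOP tract is the sequence feature these genes are known for. RefSeq promoters on GRCm38.p6 matched 36 of the 58 genes with exactly 1 entry, 8 genes with several and 14 with none. Of the 6 genes shown, Rpl13, Rpl14, Rpl22l1 and Rpl24 rose in degradation rate in the knockout, Rpl15 and Rpl18 changed in processing rate in the fit that compares genotypes within a labelling time, and Rpl24 shows a window without a pyrimidine run. They were chosen after their values were seen. Each line runs from 20 bases before to 10 bases after the annotated start, and the longest run of at least 5 pyrimidines (C or T) is in capitals. The run crosses the annotated start in Rpl14 and Rpl15, begins just after it in Rpl18 and Rpl22l1, and ends upstream of it in Rpl13, outside the annotated transcript.
Rpl13: gtcaCTTCCCTTTCgcctgattttgattgg
Rpl14: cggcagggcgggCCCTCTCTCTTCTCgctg
Rpl15: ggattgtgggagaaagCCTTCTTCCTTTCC
Rpl18: acgagtgcgtctcgcaggccgCTCTTTCCC
Rpl22l1: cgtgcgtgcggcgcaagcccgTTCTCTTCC
Rpl24: taggaagaaagctgttgctaggaaacagac
The windows lie at chr8:123102330-123102359 (Rpl13, plus strand), chr9:120571497-120571526 (Rpl14, plus strand), chr14:18270977-18271006 (Rpl15, minus strand), chr7:45718051-45718080 (Rpl18, plus strand), chr3:28805488-28805517 (Rpl22l1, plus strand) and chr16:55966255-55966284 (Rpl24, plus strand). In this window of 30 bases a run of 8 or more pyrimidines occurred in 16 of 36 ribosomal protein promoters (44.4%), against 634 of the 5225 promoters of all genes in the rate table with 1 entry (12.1%). Runs that end before the start were counted too, as in Rpl13, Rpl31, Rpl5, Rps15a and Rps25, so these are not shares of TOP tracts. The letters CTCTTT, searched on the gene's strand in the same window, were in 6 of 36 (16.7%) and 53 of 5225 (1.01%), and on both strands in 7 (19.4%) and 81 (1.55%). Upstream of the start, in 250 bases and on both strands, CTTCCG, the core letters bound by ETS factors such as GABP, was in 20 of 36 (55.6%) against 28.7% of all promoters, and GGGCGG, the core of the SP1 motif, in 21 (58.3%) against 65.7%. CTTCCG can overlap a pyrimidine run where it lies within 20 bases of the start.

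The genes were compact in GENCODE M21. Their coding transcripts had a median length of 882 bases and 4 introns spanning 2108 bases, against 3194 bases, 8 introns and 21830 intronic bases for the 8320 matched genes of the table. They lay on 19 chromosomes. Of the 58 genes, 21 (36.2%) hold at least 1 gene for a small nucleolar RNA (snoRNA, a guide for chemical modification of ribosomal RNA) within an intron, against 1.96% of all matched genes. Processed copies are another feature of the family: 43 of the 58 genes have pseudogenes named after them in that annotation, 225 in all. How reads shared with such copies were assigned is not stated in the sources used here, so each value below carries that uncertainty.

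The targeted gene and the markers were read first. Fmr1 had degradation rates of 0.0774 at 20 min and 0.0672 at 60 min in the wild-type libraries, and of 2.58 and 2.66 in the Fmr1-KO libraries. Its synthesis rate was not lower there, at 2.06 and 1.56 against 0.810 and 0.692. Degradation rates were listed for 92.4% to 92.8% of genes in wild type and for 71.8% to 74.3% in the knockout. Of 9 neuron markers 2 are in the rate table, and Rbfox3 alone has all 4 degradation rates. Of the 6 microglial and 4 endothelial markers 0 are in the table, and the astrocyte, oligodendrocyte lineage and dividing progenitor lists have 1 gene each with all 4 rates. The part of other cell types in the results was not tested. Read counts were not used here, so depth is unknown.

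A rate was missing more often for ribosomal protein genes than for the table as a whole. All 4 degradation rates were listed for 26 of the 58 genes (44.8%) and for 66.5% of all genes. No degradation rate in any library was listed for 11 genes (19.0%), against 4.49% of all genes: Rpl17, Rpl21, Rpl29, Rpl30, Rpl34, Rpl6, Rpl7a, Rps13, Rps20, Rps23 and Rps27. Another 10 had a degradation rate at both times in wild type and at neither in the knockout: Rpl27, Rpl28, Rpl36a, Rpl37a, Rpl7, Rpl7l1, Rps2, Rps3a1, Rps4x and Rps6, the last encoding the small-subunit protein phosphorylated downstream of mTOR. They are 24.4% of the 41 genes with both wild-type rates, against 19.5% over all genes. The reverse, rates in the knockout only, held for Rpl27a, Rpl5 and Rps16 at both times and for Rpl31 and Rps21 at 20 min. Of all 8590 genes, 168 had knockout rates only at both times and 43 at 1 time. Rpl10a, Rpl41, Rps15a, Rps24 and Rps7 had both wild-type rates and the knockout rate at 20 min. Over all genes, 652 of the 7914 with both wild-type rates had 1 knockout rate.

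Genes that host a snoRNA lacked wild-type degradation rates at both times in 10 of 21 cases, and the other ribosomal protein genes in 6 of 37. A degradation rate at both wild-type times was listed for 10 of 21 hosts (47.6%) and for 31 of 37 other ribosomal protein genes (83.8%). In the knockout the figures were 11 (52.4%) and 18 (48.6%). Of the 11 genes without any rate, 7 were hosts, and so were all 3 with rates at both times in the knockout only. Among genes outside the family, 86.6% of 142 hosts and 92.6% of 8120 other genes had both wild-type rates, and 63.4% and 69.2% both knockout rates. There, 9.86% of hosts and 4.27% of other genes had no degradation rate. Rates at both times in the knockout only were listed for 0 of these hosts and 161 of these other genes. The bar chart of listed rates shows these shares. No test was run on them, and what the missing rates come from was not tested.

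**Figure D1:**
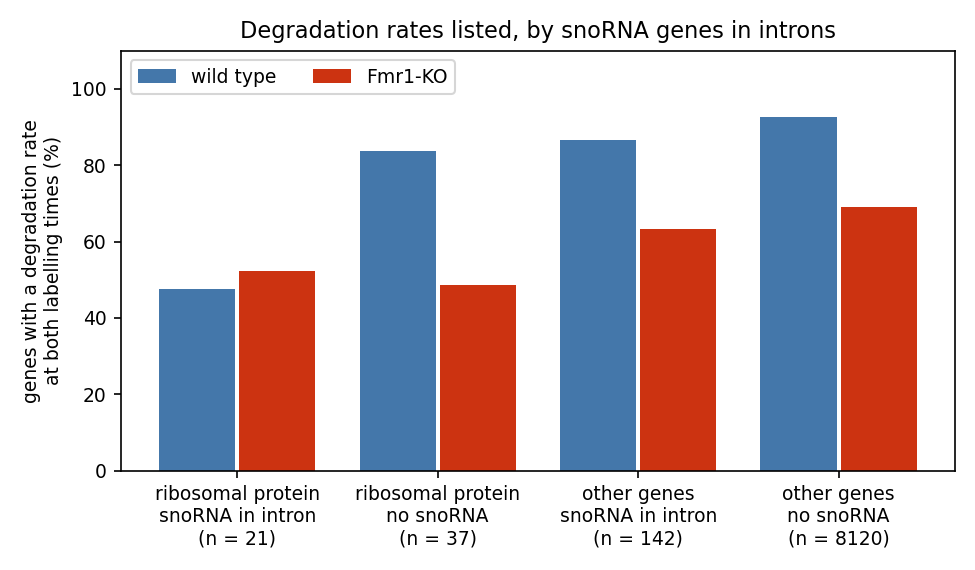
Share of genes (%) with a degradation rate above 0 at both labelling times, for ribosomal protein genes and other genes with and without a snoRNA gene in an intron, in wild type (blue) and Fmr1-KO (red); the number of genes stands under each pair of bars. Ribosomal protein genes that host a snoRNA have the lowest wild-type bar, 47.6%.

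In wild type, the listed values of all 3 rates covered a wide range among ribosomal protein genes. By the mean log2 rate over both times, the lowest degradation rates among the 41 genes with both values were those of Rpl14 (0.0505 at 20 min and 0.0574 at 60 min), Rpl13 (0.0687 and 0.0437) and Rpl24 (0.0691 and 0.0663), all of the large subunit. The highest were those of Rpl35a (1.22 and 0.335), Rps24 (0.900 and 0.264) and Rpl7l1 (0.319 and 0.713). Both trios were picked by these same values, so their separation follows from the choice. Rates are in the units of the deposited table, whose time unit is not stated. The median degradation rate of listed members in the wild-type libraries was 0.158 (20 min) and 0.0961 (60 min), beside 0.111 at both times for all genes.

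By the same mean, synthesis rates were highest for Rpl32 (8.35 at 20 min and 5.49 at 60 min), Rps14 (5.95 and 5.38) and Rpl9 (7.51 and 3.78). They were lowest for Rps2 (2.01 and 0.562), Rpl23a (1.93 and 0.746) and Rps27a (1.33 and 1.94). These trios too were picked by their own values. The order of members by synthesis rate differed between the wild-type libraries (Spearman rho of 0.121 over 41 members). Whether synthesis rates were scaled by transcript length is not stated, so their order between genes is that of the table only. Processing rates were highest for Rps4x (36.2 and 28.1), Rpl24 (19.1 and 18.3) and Rpl14 (17.3 and 19.7). They were lowest for Rpl28 (0.534 and 0.477), Rpl10a (1.36 and 0.532) and Rpl36 (1.72 and 0.454). The median wild-type processing rate of members, 5.52 and 3.77, lay below that of all genes, 7.37 and 7.25. Members that host a snoRNA had median processing rates of 3.97 and 2.42 (10 genes), and the other members 7.16 and 4.49 (30 genes). Hosts were lower over all genes too, with medians of 4.98 and 4.52 against 7.43 and 7.34. Across members, the wild-type processing rate correlated with the summed intron length at Spearman rho of 0.461 at 20 min and 0.426 at 60 min (40 genes each, which share their libraries), against 0.206 and 0.248 over all genes. In the knockout the members' values were 0.132 (35 genes) and 0.00591 (29 genes), against 0.18 and 0.169 over all genes, and the sets of members differ from those in wild type. For the number of introns the members' wild-type rho was 0.207 and 0.288, and for transcript length -0.0591 and 0.0126. The wild-type libraries are not 2 separate checks, as they ordered members alike by processing rate (rho 0.907 over 39 members).

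Most ribosomal protein genes had higher rates after the shorter labelling. The synthesis rate was higher at 20 than at 60 min in 35 of 41 members in wild type (85.4%) and in 26 of 30 in the knockout (86.7%), against 52.0% and 55.9% of all genes. The median log2 ratio of 20 over 60 min was 0.83 in wild type and 0.69 in the knockout, beside 0.05 and 0.12 for all genes. Rpl35a, a large-subunit gene mutated in some cases of Diamond-Blackfan anaemia, went from 4.94 at 20 min to 1.36 at 60 min in wild type. Rpl41, which encodes the smallest ribosomal protein, went from 7.61 to 2.19. Rpl7l1 and Rpl7 lay the other way, at 1.45 and 1.98 at 20 min and 3.24 and 3.46 at 60 min. Each genotype has 1 library per time, so within a genotype this difference has no replicate check, and library and time cannot be told apart. The difference between times was not tested over both genotypes. Processing rates were higher at 20 min in 34 of 39 members in wild type and 24 of 28 in the knockout (51.4% and 54.9% of all genes), and degradation rates in 35 of 41 and 23 of 29 (52.0% and 55.8%). In wild type the 3 rates of a gene mostly moved together between the times, so the wild-type counts largely repeat that of synthesis.

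**Figure D2:**
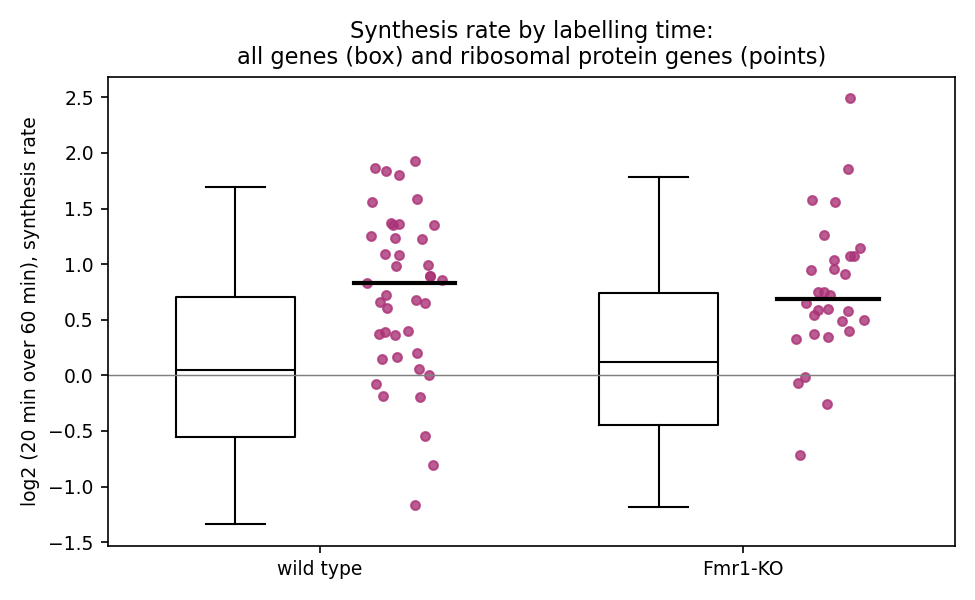
Log2 ratio of the synthesis rate at 20 over that at 60 min, for all genes (box with median and quartiles, whiskers at the 5th and 95th percentiles) and for each ribosomal protein gene (points, bar at their median), in wild type and Fmr1-KO. Most points lie above 0 in both genotypes, around medians of 0.83 and 0.69.

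The 3 rates of a library were linked. The ratio of synthesis to degradation rate, which at steady state is the level of mature RNA the rates imply, was the same at both times to within 0.001 log2 units in 39 of 41 members in wild type and in 0 of 29 in the knockout. The spread between the wild-type degradation rates is therefore mostly that of the synthesis rates, and the p-values below measure only the spread between labelling times. The order of members by synthesis rate differed between the times in wild type (Spearman rho of 0.121 over 41 members, against 0.764 over all genes). In the knockout that rho was 0.487 (30 members, against 0.77 over all genes). By degradation rate the knockout libraries ordered members alike (rho 0.911 over 29 members, against 0.874 over all genes). The wild-type libraries did so less by that rate (rho 0.65 over 41 members, against 0.71 over all genes). Between genotypes the rho by degradation rate was -0.281 at 20 min (32 members, against 0.236 over all genes) and 0.139 at 60 min (26 members, against 0.323).

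In the knockout, degradation rates of ribosomal protein transcripts were mostly higher. Of the 26 genes tested, 9 rose and 0 fell (limma, adjusted p under 0.05 over all 5716 genes tested), 6 of 19 in the large and 3 of 7 in the small subunit. Over all genes 20.5% rose and 2.57% fell. Members had a median change of 1.06 log2 units (0.64 at 20 min, 1.36 at 60 min), and all genes one of 0.65 (0.73 and 0.58). The change was upward at both times in 17 of 26 members and 62.1% of all genes, and downward at both in 5 members and 26.2% of all genes. Both knockout values lay above both wild-type values in 16 of 26 members and in 52.6% of all genes, and below them in 0 members and 16.5% of all genes. Outside the fit, the 5 members with both wild-type rates and only the 20 min knockout rate were all lower in the knockout at 20 min. Knockout against wild type, with 1 library each, these were Rpl10a (0.0601 against 0.257), Rpl41 (0.0489 against 0.357), Rps15a (0.233 against 0.498), Rps24 (0.692 against 0.900) and Rps7 (0.0267 against 0.356). The medians of the libraries differed by 0.86 log2 units between genotypes. With each library centred on its median, the median change was 0.20 for members and -0.20 for all genes, and 0 of the 9 calls remained, in a fit where 0.560% of all genes rose and 1.05% fell.

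Rpl13 and Rpl14, large-subunit genes whose start sites are shown above, had the lowest mean wild-type rates and the largest changes. The wild-type degradation rates of Rpl13 were 0.0687 (20 min) and 0.0437 (60 min), and its knockout rates 0.409 and 0.365. It rose by 2.82 log2 units (SE 0.39, adjusted p = 0.0235 by limma), or 7.06-fold. Both knockout libraries lay far above both wild-type libraries. The wild-type rates of Rpl14 were 0.0505 and 0.0574 and its knockout rates 0.336 and 0.310, a rise of 2.58 log2 units (SE 0.32, adjusted p = 0.0235 by limma). Its groups were equally distinct, and its 2 wild-type values were the reverse in order of those of Rpl13.

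Rps27a encodes a fusion of ubiquitin to a small-subunit protein. Its wild-type rates were 0.0861 and 0.128 and its knockout rates 0.672 and 0.486, a rise of 2.45 log2 units (SE 0.40, adjusted p = 0.0269 by limma). The change was smaller at 60 min (1.93) than at 20 min (2.96), and the groups did not overlap.

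Both members of the paralogue pair Rpl22 and Rpl22l1, which encode alternative forms of 1 large-subunit protein, rose. Wild-type rates of Rpl22 were 0.0819 and 0.0816 and knockout rates 0.333 and 0.337, a rise of 2.03 log2 units (SE 0.31, adjusted p = 0.0248 by limma). Those of Rpl22l1 were 0.118 and 0.0914, then 0.341 and 0.342, a rise of 1.71 log2 units (SE 0.34, adjusted p = 0.0351 by limma). The knockout rates of the pair were thus close to each other. Of the other paralogues, Rps27l, a relative of Rps27 known as a p53 target, had wild-type rates of 0.117 and 0.134 and knockout rates of 0.435 and 0.355, a rise of 1.65 log2 units (SE 0.33, adjusted p = 0.0368 by limma). Rps27 itself had no rate. Rpl7 and Rpl7l1 had wild-type degradation rates alone, 0.0731 and 0.128 for Rpl7 and 0.319 and 0.713 for Rpl7l1.

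The remaining 3 rises were in Rps14, Rpl24 and Rpl32. Rps14, a small-subunit gene whose human counterpart lies in the region lost in a form of myelodysplastic syndrome, had wild-type rates of 0.0859 and 0.0776 and knockout rates of 0.313 and 0.263, a rise of 1.81 log2 units (SE 0.33, adjusted p = 0.0299 by limma). Rpl24, whose product sits at the interface with the small subunit, had 0.0691 and 0.0663 against 0.256 and 0.218 (log2 change 1.80, SE 0.32, limma adjusted p = 0.0296). Rpl32 had 0.146 and 0.0961 against 0.381 and 0.351 (log2 change 1.63, SE 0.37, limma adjusted p = 0.0469). In each of the 3 genes the groups were distinct, and Rpl24 is the gene shown above without a run of 5 pyrimidines around its RefSeq start.

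**Figure D3:**
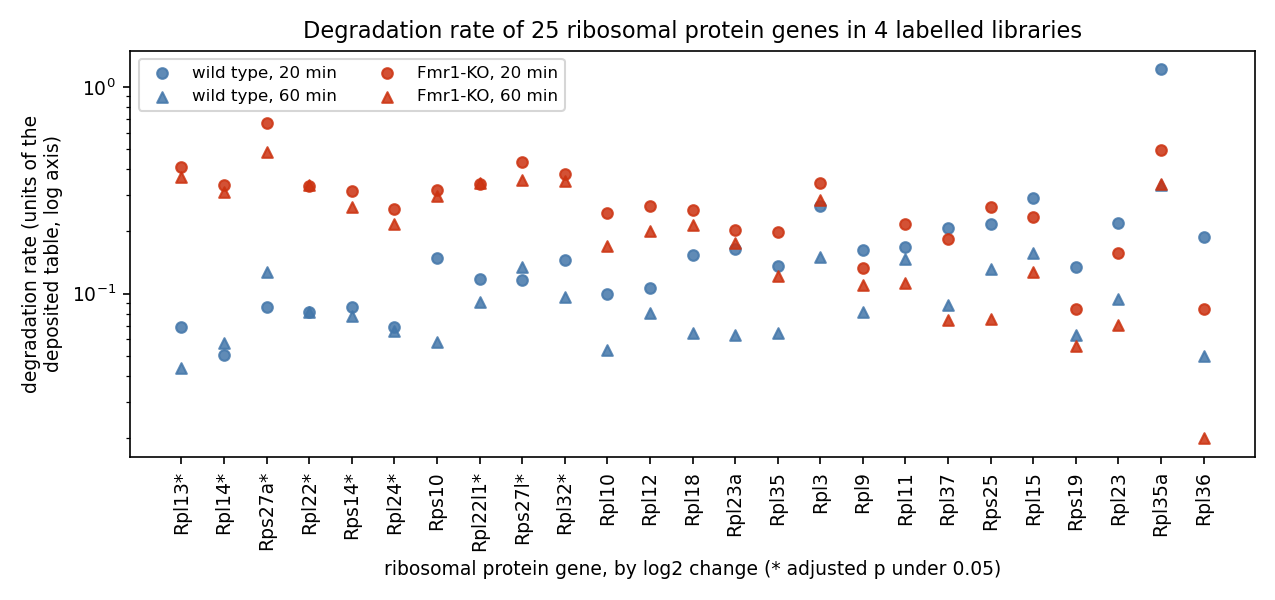
Degradation rate (log axis, units of the deposited table) of 25 of the 26 ribosomal protein genes with all 4 values (1 gene is not reported here), ordered by log2 change, in wild type (blue) and Fmr1-KO (red) at 20 min (circles) and 60 min (triangles); asterisks mark limma adjusted p under 0.05. Knockout values lie above wild-type values at the left, from Rpl13, and the groups overlap at the right, down to Rpl36.

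Other members did not pass the test. Rps10, a small-subunit protein that is ubiquitinated on stalled ribosomes, had wild-type rates of 0.149 and 0.0584 and knockout rates of 0.316 and 0.298 (log2 change 1.72, SE 0.56, limma adjusted p = 0.0885). Its wild-type values differed more with labelling time than those of the genes that passed. At the lower end stood Rpl36 at -1.24 log2 units (SE 1.01, adjusted p = 0.395 by limma), Rpl35a at -0.64 (SE 0.73, adjusted p = 0.536) and Rpl23 at -0.44 (SE 0.65, adjusted p = 0.637), all of the large subunit. The wild-type rates of Rpl36 were 0.189 and 0.0498 and its knockout rates 0.0843 and 0.0200, so that its groups overlapped although both times pointed down. Its change was -2.28 without the 20 min and -0.20 without the 60 min knockout library.

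With labelling time as a block, which compares the genotypes within each time, 12 members rose (38.2% of all genes) and 1 fell (9.76% of all genes). The 12 were the 9 above with Rps10 (limma adjusted p = 0.0359), Rpl10 (0.0224) and Rpl12 (0.0256), and the member that fell was Rpl36 (0.0294). With the block and centring, 4 members rose (13.9% of all genes) and 5 fell (22.4%). The 4 were Rpl13, Rpl14, Rps27a and Rpl22 (limma adjusted p from 0.0301 to 0.0452), and those lower after centring were Rpl37, Rpl15, Rps19, Rpl23 and Rpl36 (from 0.0296 to 0.0482). The authors' deposited table tested 32 members, with 12 higher (29.2% of all genes there) and 1 lower (7.09%). In the authors' deposited table the lower one was Rps7 (-3.11 log2 units, adjusted p = 0.0439 by limma), a gene with no knockout rate at 60 min. Leaving out the 20 min wild-type library left 4 members called, 3 of them among the 9, and leaving out any other library left 0. Over all genes 18.4% rose without the 20 min wild-type library, and 0% to 1.08% without each of the others. Without the 60 min wild-type library the members' median was 0.41.

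Synthesis rates of ribosomal protein genes showed no difference past the test between genotypes. By limma 0 of the 27 members tested passed after adjustment, and 0 had an unadjusted p under 0.05, as against 0 and 18 (0.311%) of all 5794 genes. The count was 0 too with labelling time as a block and in the authors' deposited table. Both knockout values lay above both wild-type values in 3 members (8.92% of all genes) and below them in 2 (9.20% of all genes). The median log2 change was -0.03 for members and -0.03 for all genes. The highest changes were 0.35 for Rpl24 (SE 0.41), 0.24 for Rpl22l1 (SE 0.39) and 0.20 for Rps14 (SE 0.43). The lowest were -0.80 for Rpl36 (SE 0.86) and -0.71 for Rpl35a (SE 0.72), and the limma adjusted p was 1.00 for each of these 5 genes. In Rpl13, where degradation rose most, the wild-type synthesis rates were 4.15 and 2.64 and the knockout rates 4.28 and 2.28, with overlapping groups.

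Synthesis over degradation was lower in the knockout at both times in 21 of 26 members (80.8%), and in 67.5% of all genes, with median log2 changes of -1.04 at 20 min and -1.28 at 60 min for members and -0.60 and -0.63 for all genes. The 5 members with both wild-type rates and only the 20 min knockout rate went the other way at 20 min. From wild type to knockout these were Rpl10a (18.6 to 63.7), Rpl41 (21.3 to 150), Rps15a (6.72 to 19.1), Rps24 (4.79 to 8.82) and Rps7 (14.9 to 110). Rpl13 had a ratio of 60.4 in both wild-type libraries and of 10.4 and 6.24 in the knockout ones. Rpl14 had 45.7 in both wild-type libraries and 8.11 and 5.85 in the others. Rpl15, a large-subunit gene, stood on the other side, with 12.3 in both wild-type libraries against 16.6 and 18.3. The wild-type ratio is shared between times in most genes and so has no spread there, and these ratios were not tested. With a median synthesis change of -0.03 for members, the ratio mostly restates the change in degradation rate, and it was not centred. The input libraries were not analysed, so whether RNA levels differed was not tested. In bulk cultures, fewer cells with a transcript and less of it per cell could not be told apart either.

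Processing rates passed the test in 13 of 25 ribosomal protein genes with labelling time as a block and in 0 without it. Without the block, by limma 0 of 25 members passed, as did 0 of all 5082 genes, and the unadjusted p was under 0.05 in 8 of the 25 members and in 15.4% of all genes. With the block, 11 members were lower (19.3% of all genes) and 2 higher (6.26%). With the block and centring these were 4 (6.40%) and 2 (7.14%). Both knockout values lay below both wild-type values in 11 of 25 members and in 35.1% of all genes, and above in 2 members and 11.5% of all genes. The median log2 change was -0.62 for members, with -0.27 at 20 min and -0.92 at 60 min, and -0.36 for all genes. Library medians differed by -0.35 between genotypes, and with centring the median was -0.27 for members and -0.01 for all genes.

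The 2 members higher with the block were Rpl15 and Rpl23a, the latter encoding the protein at the tunnel exit that signal recognition particle touches. Wild-type processing rates of Rpl15 were 1.61 and 0.870 and its knockout rates 14.5 and 10.5, a difference of 3.39 log2 units (SE 0.50, limma adjusted p = 0.102, or 0.00781 with the block). For Rpl23a they were 2.29 and 0.884, then 5.74 and 4.77, a difference of 1.88 log2 units (SE 0.58, limma adjusted p = 0.232, or 0.0218 with the block). Both genes had all knockout values above all wild-type values. With 1 library left out, the difference ranged from 2.94 to 3.83 for Rpl15 and from 1.19 to 2.56 for Rpl23a. With a pseudocount it was 2.19 for Rpl15 and 1.06 for Rpl23a. Rpl35a came next, with 13.2 and 3.63 against 14.5 and 10.2 and overlapping groups (log2 change 0.81, SE 0.70, adjusted p = 0.614 by limma).

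The lower side was led by Rpl14, Rps19 and Rpl36. Rpl14 had wild-type processing rates of 17.3 and 19.7 and knockout rates of 4.39 and 2.67, a difference of -2.43 log2 units (SE 0.46, limma adjusted p = 0.126, or 0.0119 with the block). Rps19, the small-subunit gene most often mutated in Diamond-Blackfan anaemia, had 13.7 and 6.41, then 2.79 and 1.64, a difference of -2.13 log2 units (SE 0.57, limma adjusted p = 0.190, or 0.0101 with the block). In both genes the groups were distinct. Rpl36 had 1.72 and 0.454 against 0.569 and 0.0854, which overlap, and a difference of -2.00 log2 units (SE 1.08, limma adjusted p = 0.438, or 0.0149 with the block). It was -3.37 without the 20 min and -0.63 without the 60 min knockout library, -1.04 without the 20 min wild-type library, and -0.39 with a pseudocount. Rpl13, Rpl23, Rpl32, Rpl22l1, Rpl12, Rpl24 and Rpl18 were also lower with the block (limma adjusted p from 0.0113 to 0.0492). With the block and centring Rpl14, Rps19, Rpl36 and Rpl18 kept the call (adjusted p from 0.0332 to 0.0386) and the other 6 named lost it (0.0533 to 0.132).

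**Figure D4:**
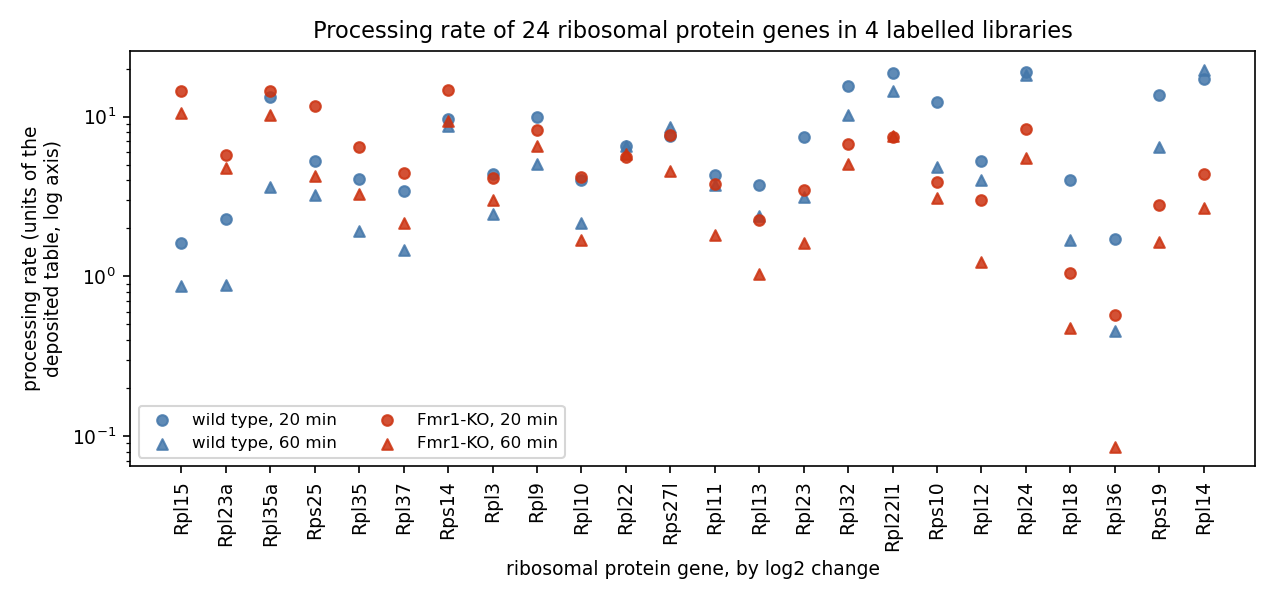
Processing rate (log axis, units of the deposited table) of 24 of the 25 ribosomal protein genes with all 4 values (1 gene is not reported here), ordered by log2 change, in wild type (blue) and Fmr1-KO (red) at 20 min (circles) and 60 min (triangles). Rpl15 and Rpl23a lie at the left with knockout values above wild type, and Rps19 and Rpl14 at the right with knockout values below.

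Members with and without a snoRNA in an intron were set side by side. The 8 hosts tested had a median log2 change of 0.77 in degradation rate with 1 call (Rpl13), and the 18 others 1.43 with 8 calls, beside a median of 0.65 and 20.5% called higher over all genes. With labelling time as a block, the hosts Rpl10 and Rpl12 were called higher too (limma adjusted p = 0.0224 and 0.0256). Of the others, Rps10 was then added as higher (0.0359) and Rpl36 as lower (0.0294). In processing rate the medians were -0.56 for 8 hosts and -0.62 for 17 others. The difference between hosts and others was not tested.

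**Figure D5:**
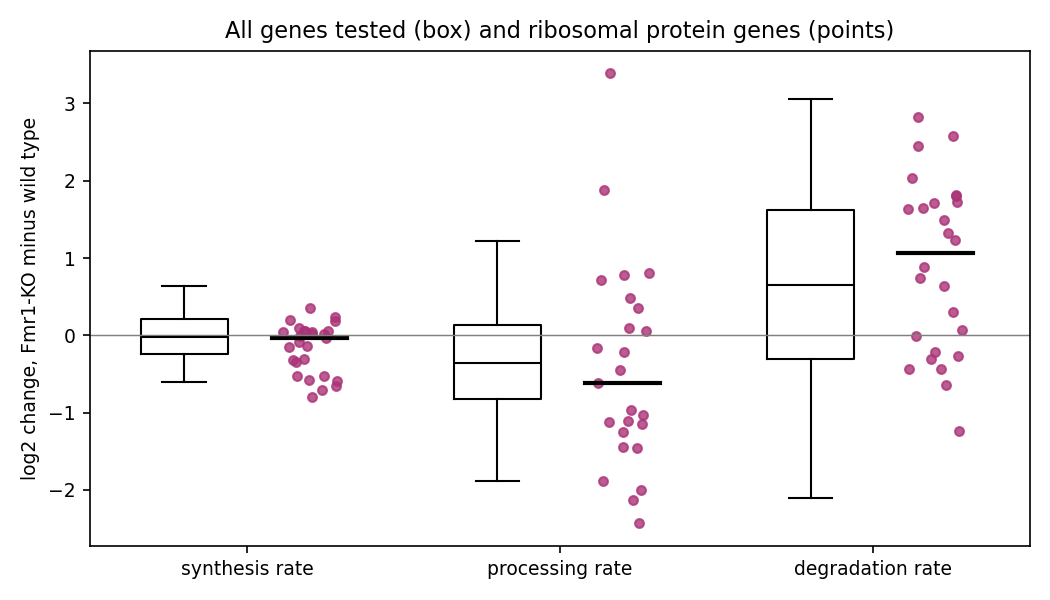
Log2 change of knockout minus wild type in each rate, for all genes tested (box with median and quartiles, whiskers at the 5th and 95th percentiles) and for the ribosomal protein genes (points, bar at their median). The points centre on -0.03 for synthesis, -0.62 for processing and 1.06 for degradation.

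Other genes of the translation machinery were read from lists of known members. Of 41 mitochondrial ribosomal protein genes tested for degradation rate, 10 rose (24.4%, against 20.5% of all genes) and 0 fell (2.57% of all genes), with a median log2 change of 1.32 beside 0.65 for all genes. With labelling time as a block 22 of the 41 rose and 2 fell, against 38.2% and 9.76% of all genes. The largest rises there were in Mrpl27 (3.91), Mrpl24 (3.42) and Mrpl55 (3.40), with limma adjusted p from 0.0235 to 0.0339. Of 53 ribosome biogenesis genes 7 rose (13.2%, below the 20.5% of all genes) and 3 fell (2.57% of all genes), around a median of 0.41, which is also below that of all genes. With the block 17 of the 53 rose and 9 fell, against 38.2% and 9.76% of all genes. Fbl, the methyltransferase that acts with box C/D snoRNAs, rose by 3.44 (SE 0.43, limma adjusted p = 0.0235) and Wdr46 by 3.63 (SE 0.36), while Rrs1 fell by 4.35 (SE 0.43, limma adjusted p = 0.0235 for both).

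Of 8 other TOP messenger RNAs, mainly translation factors, 0 passed by limma (20.5% of all genes rose), 1 had an unadjusted p under 0.05 (43.1% of all genes), and the median log2 change was 0.36. With labelling time as a block 1 rose and 1 fell, against 38.2% and 9.76% of all genes. Regulators of TOP translation had 2 rises in 10 genes (20.0%, near the 20.5% of all genes). These were in Larp1b (2.44, SE 0.38, limma adjusted p = 0.0249) and Larp1, the TOP-binding protein (1.41, SE 0.31, limma adjusted p = 0.0441). With the block 6 of the 10 rose and 1 fell, against 38.2% and 9.76% of all genes. Of 4 ribosomal RNA transcription genes, too few to set against the 20.5% of all genes, 2 rose: Polr1a, the largest subunit of RNA polymerase I, by 2.10 (SE 0.44, limma adjusted p = 0.0397) and Taf1c by 1.73 (SE 0.33, limma adjusted p = 0.0330). With each library centred on its median, the degradation medians of these lists were 0.46 for mitochondrial ribosomal proteins, 0.45 for ribosomal RNA transcription and 0.25 for TOP regulators, and turned negative for other TOP messenger RNAs (-0.50) and ribosome biogenesis (-0.45), beside -0.20 for all genes. Synthesis and processing rates gave 0 limma calls in each of these lists without the block, and an unadjusted p under 0.05 was found for 0 of their genes in synthesis and, in processing, for 12 of 35 mitochondrial ribosomal protein, 12 of 46 biogenesis, 1 of 7 other TOP, 1 of 2 ribosomal RNA transcription and 0 of 10 TOP regulator genes, against 15.4% of all genes. With the block, synthesis still gave 0 calls. Processing then gave 7 higher and 6 lower mitochondrial ribosomal protein genes, 3 and 14 biogenesis genes, 2 and 1 other TOP genes, 1 and 0 ribosomal RNA transcription genes and 1 and 1 TOP regulators, against 6.26% and 19.3% of all genes.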

How the data were processed

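The deposited rate table, which the labels name for INSPEcT, holds the 3 rates of each of the 4 libraries with 5-EU as linear signal values. Per the submitters' processing notes, cutadapt, Bowtie2, TopHat2, HISAT2 and limma were used with the builds mm10, dm6 and sacCer3, the last 2 for fly and yeast spike-ins (10% by weight each, per the labels' protocols). Versions, annotation, scaling between libraries and the time unit are not given in the sources used here. The authors also deposited limma tables of knockout against wild type with log2 changes, p-values and score columns, of which the scores were not used. The 10 samples fell into 6 groups by title: per genotype 2 libraries with 5-EU, 2 input and 1 unlabelled pull-down, the latter kinds not analysed here.

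Genes with a rate above 0 in all 4 libraries were fitted, on log2 values without a pseudocount, with limma 3.58.1 in R 4.3.3 (lmFit, eBayes without trend, two-sided, Benjamini-Hochberg over all genes tested, threshold 0.05). The samples entered as WT and KO only. The labels give both genotypes the same labelling times, and the difference between times correlated across genotypes (Spearman rho from 0.652 to 0.735 over all genes, 0.151 to 0.363 over members), so the fit with labelling time as a block is printed where it changes a call. The fit was tested on simulated data. Gene structure came from GENCODE M21 on GRCm38 (mm10), promoters from RefSeq.

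The members, lists and tests were chosen with earlier results of these data known. Named genes were members called for a rate, the 3 highest and 3 lowest changes and wild-type rates, members listed in 1 genotype only, paralogue pairs, Fmr1, and up to 3 calls per other list. Others are named in counts of block calls or as examples of labelling time, chosen after their values were seen. Alternatives were centring, quantile normalization, the block, both together, a filter at the 25th percentile, adding a pseudocount (the 10th percentile), eBayes with trend, the authors' tables, a threshold of 0.01 and leaving out each library. A few single-gene results are not reported here.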

Additional observations from a re-analysis of the deposited data

Results flagged for a closer look

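Some changes pointed in opposite directions at the 2 labelling times, with 1 library per genotype and time, so that the difference itself was not tested. The log2 changes in synthesis rate at 20 and 60 min were 1.27 and -1.14 for Rps27a, 0.48 and -0.43 for Rps27l, -0.44 and 0.55 for Rpl23a, 0.24 and -0.53 for Rpl14, 0.45 and -0.05 for Rps14, and 0.04 and -0.21 for Rpl13. The median over the 27 members was 0.04 and -0.17. In degradation rate Rpl35a had -1.30 and 0.02, and in processing rate Rps27l had 0.03 and -0.92. Of the members tested, 12 of 27 had opposite signs for synthesis, 4 of 26 for degradation and 4 of 25 for processing, against 43.4%, 11.6% and 20.9% of all genes. None of the 9 degradation calls was among the 4.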

How the results depend on the processing

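The count of 9 members with a higher degradation rate became 0 with centring, 1 with quantile normalization, 4 with the block and centring and 0 at a threshold of 0.01, and ranged from 0 to 4 with 1 library left out. In those last fits the lone library of a genotype is assumed to vary like the others. The count was 10 to 12 under the other settings fitted, which each kept the 9. The count of lower members, 0, became 1 with the block, 5 with the block and centring and 1 in the authors' deposited table. The median log2 change in degradation rate, 1.06, was 0.20 with centring, 0.12 with quantile normalization and 0.20 with the block and centring, and 0.41 to 1.53 with 1 library left out. The median for synthesis rate ranged from -0.55 to 0.24 with 1 library left out. For processing rate, the counts of higher and lower members, both 0, became 2 and 11 with the replicate block of labelling time and 2 and 4 with the block and centring, and ranged from 0 to 1 with 1 library left out. The processing median, -0.62, was -1.11 after the filter on low rates, which left 13 members, and -1.12 to -0.24 with 1 library left out. Single genes without a call changed sign in a few fits. The degradation change of Rpl35a was 0.48 in the authors' deposited table and ranged from -1.57 to 0.29 with 1 library left out. That of Rpl23 ranged from -1.06 to 0.18. In synthesis rate Rpl36 ranged from -1.76 to 0.17, Rpl35a from -1.64 to 0.22 and Rps14 from -0.13 to 0.52, and in processing rate Rpl35a from -0.12 to 1.74. Beyond centring and the threshold, whose construction sets the change, the causes were not tested. With unknown depth, no counting interval can be given.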
